A study of Mus musculus with 2 samples.

Results

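The Mir15, Mir16, Mir195 and Mir497 genes were followed in 2 microRNA libraries of newborn mice, both labelled as gastrocnemius, a calf muscle. Members were chosen by gene symbol in the GENCODE M21 annotation and not by their values, though earlier results of these data were known. The rule takes Mir15a, Mir15b, Mir16-1, Mir16-2 and the Mir195 and Mir497 genes, with or without a letter, which makes 8 of the 2202 microRNA genes counted. A further 10 genes whose symbols run from Mir1950 to Mir1958 only begin with the same characters and were left out. Both libraries were labelled as male B6CASTF1/J pups, the F1 cross of C57BL/6 with CAST, at postnatal day 4. The labels give no treatment and a single group, with biological replicates 2 and 1 taken from animals numbered 4 and 3, under a shared donor identifier. With 1 group there is no condition to test, and every difference below is the difference between these 2 libraries.

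MicroRNAs are short RNAs that guide Argonaute proteins to messenger RNAs, and they choose their targets mainly through the seed, bases 2 to 8 from the 5′ end. The Mir15 family is known for repressing cell cycle and survival genes such as cyclins and Bcl2, and in human leukaemia the MIR15A and MIR16-1 locus is often deleted. In mouse heart, members of the family are known to restrain division of cardiomyocytes after birth, and in mouse skeletal muscle Mir195 and Mir497 are linked to quiescence of satellite cells, the muscle stem cells.

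The mature 5p forms are shown because they define the family and decide how reads can be counted. Sequences are from RefSeq on GRCm38.p6, which held a mature form for all 8 members, with the seed in capitals.
miR-15a-5p (Mir15a): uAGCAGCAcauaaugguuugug
miR-15b-5p (Mir15b): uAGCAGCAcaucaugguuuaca
miR-497a-5p (Mir497): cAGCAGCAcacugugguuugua
miR-16-5p (Mir16-1 and Mir16-2): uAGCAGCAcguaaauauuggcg
miR-195a-5p (Mir195a): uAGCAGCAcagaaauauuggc
miR-195b (Mir195b): uAGCAGCAcagaaauaguagaa
miR-497b (Mir497b): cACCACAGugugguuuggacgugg
Of the 8 members, 7 carry the same seed, AGCAGCA, and Mir497b carries another one. Behind the seed the forms split by their 3′ part. The stretch ugguuu stands in the forms of 4 members, Mir15a, Mir15b and Mir497 with the shared seed and Mir497b without it, and in 20 of the 1738 mature forms in the RefSeq table (1.15%). The stretch aaauauuggc stands in those of Mir16-1, Mir16-2 and Mir195a and in no other of the 1738. Both were searched on the mature strand alone. Counting positions from the 5′ end, miR-15b-5p differs from miR-15a-5p by A12C, G20A, U21C and G22A, and miR-195a-5p differs from miR-16-5p by G10A and U11G.

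The members lie at 4 places in the mm10 genome. Mir15a (chromosome 14, 61632027 to 61632110, minus strand) lies in an intron of the long noncoding gene Dleu2, and Mir16-1 (61631880 to 61631972) lies 54 bases downstream and overlaps a Dleu2 exon. Mir15b (chromosome 3, 69009772 to 69009835, plus strand) and Mir16-2 (69009902 to 69009996), 66 bases apart, lie in an intron of Smc4, which encodes a condensin subunit for chromosome packing. Mir497 (chromosome 11, 70234717 to 70234800, plus strand) and Mir195a (70235042 to 70235135) are 241 bases apart, and no protein-coding or long noncoding gene of the annotation overlaps them. Mir497b (70234692 to 70234816) is annotated on the opposite strand over the whole Mir497 hairpin. Mir195b lies alone on chromosome 2 (56785811 to 56785907). The hairpins of both Mir16 genes are shown because their 5p arms cannot be told apart, with the mature forms in capitals.
Mir16-1: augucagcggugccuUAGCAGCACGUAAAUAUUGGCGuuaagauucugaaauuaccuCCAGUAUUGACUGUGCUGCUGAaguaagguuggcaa
Mir16-2: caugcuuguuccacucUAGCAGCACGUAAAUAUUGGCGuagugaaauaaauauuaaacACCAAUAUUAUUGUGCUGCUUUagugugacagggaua
The longest run common to these hairpins is 23 nt, the whole 5p form and 1 base more, while the 3p forms differ. Count files of this layout set aside reads that map to several places, so the Mir16-1 and Mir16-2 counts can miss most of miR-16-5p. These counts can still hold reads of the 3p forms, so they do not give the level of miR-16-5p. They are a lower limit of the reads of both genes. Among the other members, none shared a stretch of 22 nt with another annotated microRNA gene, apart from Mir497 and Mir497b, which are opposite strands of the same bases. Levels are therefore reads per hairpin gene, with both arms together.

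The libraries did not match each other in their main muscle marker. Replicate 2 held 7240126 reads, of which 3073086 were sense reads of microRNA genes, and replicate 1 held 8522350, of which 4458853 were. Multimapping reads made up 45.1% of replicate 2 and 35.7% of replicate 1. The 8 skeletal muscle markers held 0.338% of the microRNA reads of replicate 2 and 14.7% of those of replicate 1, and Mir206 alone had 101 and 652657 reads. Without Mir206 the order of the sums turned. The other 7 markers held 10291 reads (0.335%) in replicate 2 and 2972 (0.0667%) in replicate 1. Most of the reads of these 7 came from Mir499 and Mir486, with 8633 and 1468 in replicate 2 against 1953 and 456 in replicate 1. Whether Mir499 and Mir486 are particular to skeletal muscle was not tested, so the turned sum does not measure how much of it a library held. Mir133b went the way of Mir206, with 10 reads in replicate 2 and 427 in replicate 1. So did Mir1a-1 (6 and 13) and Mir133a-1 (16 and 34). Mir1a-2 had more reads in replicate 2 (156 and 87), and Mir133a-2 had 2 in each. Marker reads that map to several places are not counted either, so small counts need not mean low levels. This loss was not checked for the markers. Mir208a, the heart-restricted marker, held 0.967% of replicate 2 and 0.00132% of replicate 1. In its Mir206 and Mir208a counts the library labelled replicate 2 went against the skeletal muscle label, so levels are given for each library and not averaged.

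The family held 25979 reads in replicate 2 and 11107 in replicate 1. As a share of microRNA reads this was 0.845% in replicate 2 (95% exact binomial interval 0.835 to 0.856%) and 0.249% in replicate 1 (0.244 to 0.254%), a 3.39-fold difference. In CPM, reads scaled to 1000000 sense microRNA reads per library, the family stood at 8454 in replicate 2 and 2491 in replicate 1. Intervals cover counting error only and not the spread between animals or libraries. PCR copies of a molecule are counted as separate reads, so the intervals can be too narrow even for counting error. Shares depend on what else a library holds: with Mir206 and the microRNAs of the imprinted Dlk1-Dio3 region taken out of the totals, the shares were 0.854% in replicate 2 and 0.475% in replicate 1, a 1.80-fold difference. In bulk tissue, fewer cells of a type and less RNA per cell cannot be told apart.

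Members are grouped here by their mature form, but their reads are those of the hairpin gene, with both arms together. Mir497, Mir15a and Mir15b have a form with the shared seed and the 3′ stretch ugguuu. Mir497 had 7772 reads in replicate 2 and 2013 in replicate 1, or 2529 and 451 CPM. It had the most counted reads of the members in replicate 2, at rank 39 of all genes, and stood at rank 118 in replicate 1. Mir15a, of the Dleu2 locus, had 7012 reads (2282 CPM) in replicate 2 and 4644 (1042 CPM) in replicate 1. It had the most counted reads of the members in replicate 1, at rank 82, and stood at rank 44 in replicate 2. Mir15b, of the Smc4 locus, had 6761 reads (2200 CPM, rank 46) in replicate 2 and 1539 (345 CPM, rank 134) in replicate 1. For each read of Mir15a there were 1.11 reads of Mir497 and 0.964 of Mir15b in replicate 2, and 0.433 and 0.331 in replicate 1, so these 3 members were close to each other in replicate 2 alone.

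Mir195a, Mir16-1 and Mir16-2 have a form with the stretch aaauauuggc, but their counts too take both arms together. Those of Mir16-1 and Mir16-2 can miss most reads of that form. Mir195a had 3490 reads (1136 CPM) in replicate 2 and 1655 (371 CPM) in replicate 1. Mir16-1 had 796 reads (259 CPM) in replicate 2 and 892 (200.1 CPM) in replicate 1, and Mir16-2 had 148 (48.2 CPM) in replicate 2 and 364 (81.6 CPM) in replicate 1. Mir16-2 was thus the only member of the 6 with reads whose CPM was lower in replicate 2. Since the counts of Mir16-1 and Mir16-2 are a lower limit, the members can be ordered by counted reads alone. From most to least counted reads, the order was Mir497, Mir15a, Mir15b, Mir195a, Mir16-1 and Mir16-2 in replicate 2. In replicate 1 it was Mir15a, Mir497, Mir195a, Mir15b, Mir16-1 and Mir16-2, where the counting intervals of Mir195a (354 to 389 CPM) and Mir15b (328 to 363 CPM) overlapped. In replicate 2 those of Mir15a (2229 to 2336 CPM) and Mir15b (2148 to 2253 CPM) overlapped. Mir195b and Mir497b had 0 sense reads in both libraries, which allows up to 0.976 CPM in replicate 2 and 0.673 CPM in replicate 1 (3 counts per library).

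**Figure D1:**
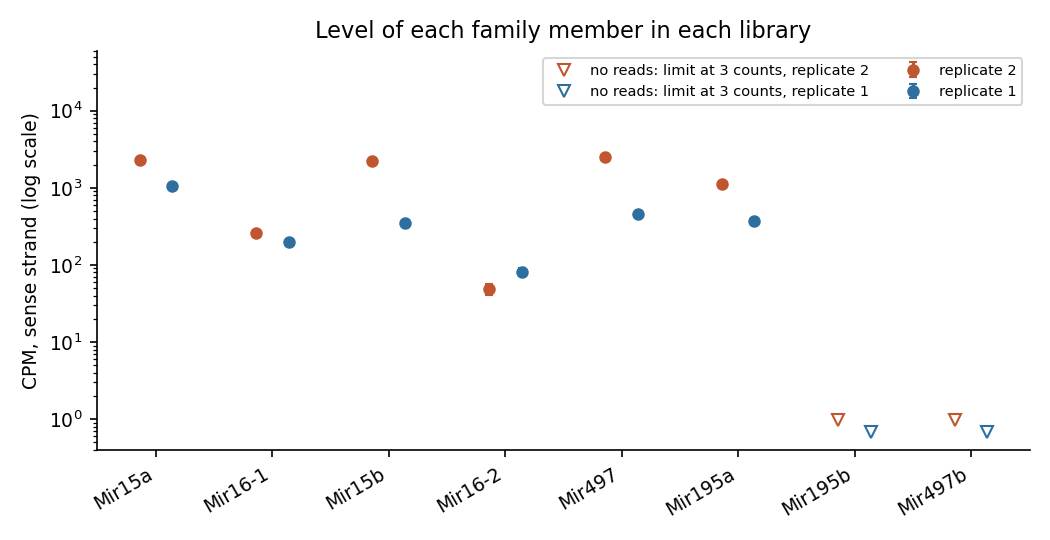
CPM of each member on the sense strand, on a log axis, with replicate 2 left of replicate 1 and 95% exact binomial intervals of counting error, mostly smaller than the points. Open triangles mark members without reads, drawn at the level of 3 counts. Mir15b and Mir497 show the widest gaps between the libraries, and Mir16-2 alone is lower in replicate 2.

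The make-up of the counted family reads differed between the libraries, a comparison that needs no scaling between them. It leaves out reads that map to several places, 45.1% of all reads in replicate 2 and 35.7% in replicate 1. These can hold most reads of the Mir16 genes, whose parts can then be too small and the other parts too large. How far this changes the parts and the locus shares was not tested. Mir497 took 29.9% of family reads in replicate 2 and 18.1% in replicate 1, and Mir15b took 26.0% and 13.9%. Mir15a took 27.0% in replicate 2 and 41.8% in replicate 1. The Mir195a part was nearly the same, 13.4% in replicate 2 and 14.9% in replicate 1. Both Mir16 genes had smaller parts in replicate 2, 3.06% against 8.03% for Mir16-1 and 0.570% against 3.28% for Mir16-2. By locus, the Mir195a and Mir497 locus held 43.4% of family reads in replicate 2 and 33.0% in replicate 1, the Mir15b and Mir16-2 locus 26.6% and 17.1%, and the Mir15a and Mir16-1 locus 30.1% and 49.8%. Mir15a, Mir15b and Mir497, the members with reads whose form holds ugguuu, together made up 82.9% of the family in replicate 2 and 73.8% in replicate 1. These are gene counts with both arms together, so they do not give the share of forms with ugguuu.

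**Figure D2:**
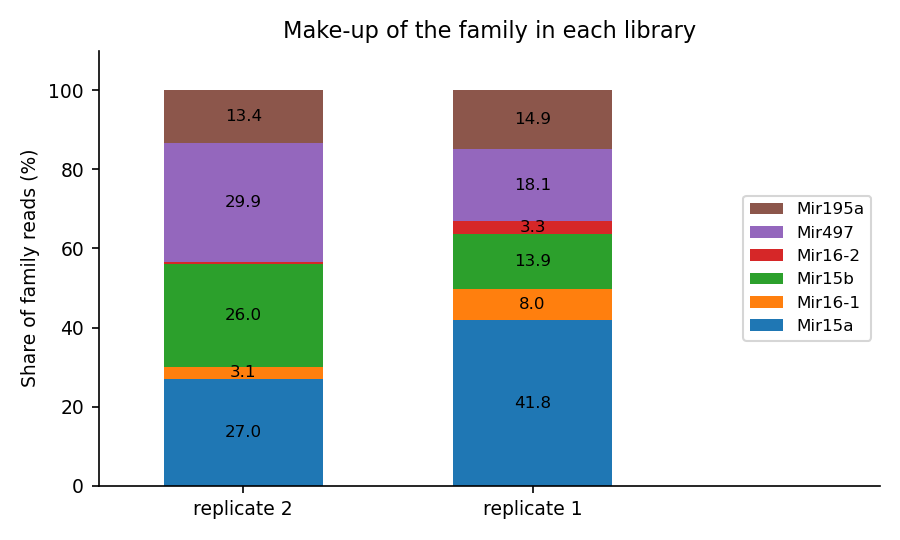
Share of the counted family reads taken by each of the 6 members with reads, in percent, for replicate 2 on the left and replicate 1 on the right. Reads that map to several places are not counted. Mir15a, at the bottom, fills 27.0% of replicate 2 and 41.8% of replicate 1, and Mir497 fills 29.9% and 18.1%.

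Members that lie side by side, and so can come from 1 primary transcript, did not keep the same ratio of reads. For each read of Mir16-2 there were 45.7 reads of Mir15b in replicate 2 (95% interval 38.8 to 54.1) and 4.23 in replicate 1 (3.77 to 4.75), a 10.8-fold difference, or a log2 change of 3.43 (3.15 to 3.72). For each read of Mir16-1 there were 8.81 reads of Mir15a in replicate 2 (8.19 to 9.49) and 5.21 in replicate 1 (4.85 to 5.60), a 1.69-fold difference. For each read of Mir195a there were 2.23 reads of Mir497 in replicate 2 (2.14 to 2.32) and 1.22 in replicate 1 (1.14 to 1.30), a 1.83-fold difference. The counting intervals of the libraries did not overlap at any of the 3 loci, which was also so for 72 of 88 other neighbouring pairs (81.8%). The Mir16 partners at the first 2 of these loci are the genes whose reads can be lost to several mapping places, and how much of the difference this makes was not tested. Their counted reads can be mostly of the 3p forms, and the arms were not counted apart. The Mir497 and Mir195a pair has no such stretch in common with each other or with another annotated microRNA locus.

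Such differences were frequent among neighbouring microRNA genes. Over 88 other neighbouring pairs on the same strand within 10 kb, with at least 100 reads for each gene over both libraries, the median absolute log2 change of the read ratio was 0.97, and 44 pairs (50.0%) reached 1. Among all 91 pairs, Mir15b and Mir16-2 ranked 7, Mir497 and Mir195a ranked 49 with a log2 change of 0.87, and Mir15a and Mir16-1 ranked 54 with 0.76. The family's other 2 pairs thus lay below the median of these 88 pairs. Many of the 88 lie in the Dlk1-Dio3 region on chromosome 12, where pairs in a row share a gene. The place of the family's 2 pairs against the median depends on that region.

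**Figure D3:**
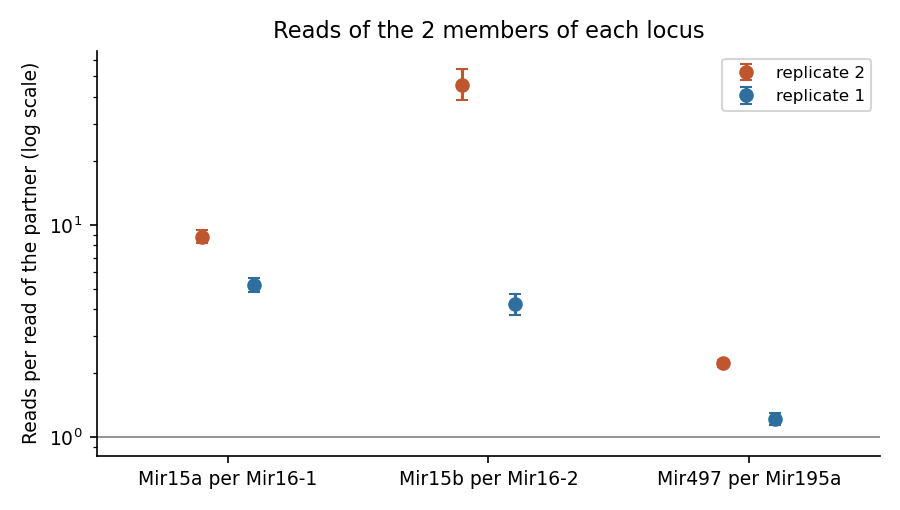
Reads of Mir15a per read of Mir16-1, of Mir15b per read of Mir16-2 and of Mir497 per read of Mir195a, on a log axis, for replicate 2 (left of each pair) and replicate 1, with 95% counting intervals. All 3 ratios are higher in replicate 2, with the widest gap for Mir15b per Mir16-2, at 45.7 in replicate 2 and 4.23 in replicate 1.

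Between libraries, log2 ratios of replicate 2 over replicate 1 were taken with TMM library sizes (edgeR's trimmed mean of log ratios) over all genes. Genes with 10 or more reads over both libraries were called at a log2 ratio of at least 1 in size, which is a 2-fold difference and not a test. Of the 8 members 6 had enough reads, and 3 of these were called higher in replicate 2, against 25.6% of all 410 genes with enough reads. Mir15b had a log2 ratio of 2.25 (counting interval 2.17 to 2.33), Mir497 of 2.06 (1.99 to 2.13) and Mir195a of 1.19 (1.10 to 1.27). Called lower was 1 member, Mir16-2, at −1.18 (−1.47 to −0.91), against 33.4% of all genes. Mir15a stood at 0.71 (0.65 to 0.76) and Mir16-1 at −0.05 (−0.19 to 0.09). The median over the 6 members was 0.95, beside −0.14 over all 410 genes, and the family sum stood at 1.34 (1.30 to 1.37).

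The library sizes decide part of these calls. Sizes from total microRNA reads moved the median of all genes by 0.40 on the log2 scale, DESeq2 size factors by −0.10, and TMM over genes with at least 10 or at least 100 reads by −0.19 and 0.16. Higher genes made up 43.4% of the calls with TMM over all genes and 54.0% with total reads. Mir15b (1.75 to 2.67) and Mir497 (1.57 to 2.49) were called higher under every scaling tried. Mir195a fell short of a call with TMM over genes with at least 10 reads (0.99) and with totals that left out Mir206 and the Dlk1-Dio3 region (0.70). With total reads 4 members were called higher, against 34.9% of all genes, since Mir15a joined at 1.13, and 0 were called lower, against 29.8%, since Mir16-2 stood at −0.76. Mir16-1 had no set direction, from −0.54 to 0.37.

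**Figure D4:**
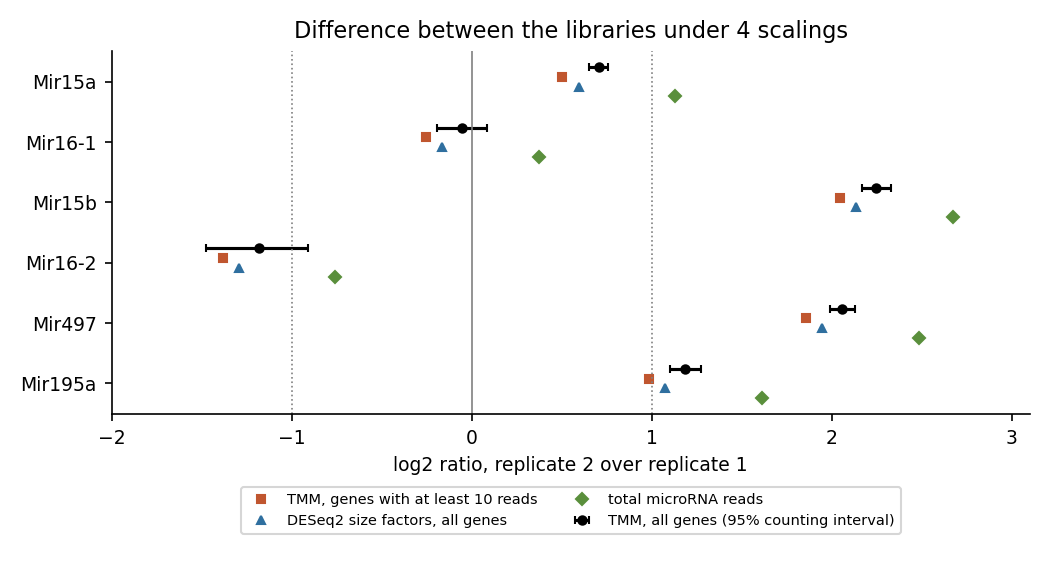
Log2 ratio of replicate 2 over replicate 1 for the 6 members with reads, under 4 scalings, with the 95% counting interval drawn for TMM over all genes and dotted lines at a 2-fold difference. Mir15b and Mir497 lie right of the 2-fold line under all 4, Mir195a lies at it with TMM over genes with at least 10 reads, and Mir16-1 lies on either side of 0.

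The seed of the family is not confined to it. In RefSeq's list, 11 genes carry a mature form with AGCAGCA, the 7 members and Mir322, Mir6342, Mir6353 and Mir6419, and the sequence of the most abundant of these others is shown for its likeness to the members.
miR-322-5p (Mir322): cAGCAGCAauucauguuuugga
Mir322, an X-linked gene linked to cell cycle exit in differentiating muscle cells, had 44556 reads in replicate 2 and 84821 in replicate 1. Mir6342, Mir6353 and Mir6419 had 0 reads in both. The reads of genes with this seed, both arms together, made up 2.30% of microRNA reads in replicate 2 and 2.15% in replicate 1. Their summed level was 22953 CPM in replicate 2, against 21514 CPM in replicate 1.

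The parts of this sum differed far more than the sum. The family gave 36.8% of the reads of genes with the seed in replicate 2 (95% interval 36.5 to 37.2%). It gave 11.6% in replicate 1 (11.4 to 11.8%), and Mir322 gave the rest. There were 1.72 Mir322 reads for each family read in replicate 2 and 7.64 in replicate 1. Under TMM the sum over genes with the seed stood at a log2 ratio of −0.33, with the family at 1.34 and Mir322 at −0.82. The sign of the sum was not set by the data: with total reads it was 0.09. The counts of Mir16-1 and Mir16-2 are a lower limit here too, so the family's part of the reads of genes with the seed can be larger in both libraries.

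**Figure D5:**
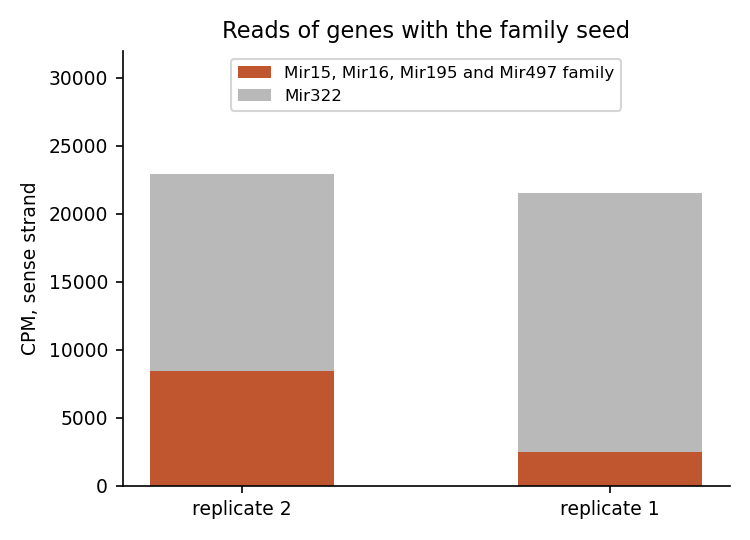
CPM of genes with the seed of the family, for replicate 2 on the left and replicate 1 on the right, with the family below and Mir322 above. The family makes up 36.8% of the bar of replicate 2 and 11.6% of that of replicate 1, and the bars are of similar height.

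The strand columns decide whether Mir497 is seen. On the antisense strand, 7 members had 0 reads in both libraries, and Mir497b had 7772 in replicate 2 and 2013 in replicate 1, the very counts that Mir497 had on the sense strand. In the column that ignores strand, Mir497 and Mir497b had 0 reads each in both libraries, since a read under 2 overlapping genes is set aside as ambiguous there. The other 5 members with reads had the same counts in the sense and the unstranded columns. No read was counted for the Mir497b strand itself.

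Other groups with links to the family are set beside it, and their calls are to be read against 25.6% higher and 33.4% lower over all 410 genes. The Mir322 cluster, which shares the seed through Mir322, held 1.93% of microRNA reads in replicate 2 and 3.02% in replicate 1, with 0 of 7 members higher and 5 lower. The Mir17 and Mir106b clusters, which are known to promote proliferation, held 1.31% and 0.674%, with 3 of 8 tested members higher and 2 lower. The Mir30 family, abundant in muscle and heart, held 2.22% and 1.13%, with 3 of 6 higher and 0 lower. Their share in replicate 2 was 0.638, 1.95 and 1.97 times that in replicate 1, beside 3.39 times for the Mir15 family. Their most abundant members, Mir322, Mir93 and Mir30e, had log2 ratios of −0.82, 1.46 and 0.60. With 1 library on each side, whether the family differs from these groups could not be tested.

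Genes with at least 1000 reads and the log2 ratio nearest to each member were named, a likeness that rests on 2 libraries. Nearest to Mir15b (2.25) were Mir499 (2.25) and Mir208b (2.13), both inside myosin heavy chain genes, and nearest to Mir497 (2.06) were Mir146 (1.99) and Mir208b. Nearest to Mir195a (1.19) were Mir92-1 (1.20) and Mir151 (1.22), and nearest to Mir15a (0.71) were Mir143 (0.74) and Mir28a (0.75). Mir16-1 (−0.05) lay by Mir342 (−0.07) and Mir181c (−0.09), and Mir16-2 (−1.18) by Mir542 (−1.09) and Mir148a (−1.24).

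Markers of other cell types are given as shares of microRNA reads and as calls with TMM sizes, beside 25.6% called higher and 33.4% lower over all genes. Of the 7 skeletal muscle markers with enough reads, 2 were called higher (Mir499 at 2.25 and Mir486 at 1.80) and 2 lower (Mir206 at −12.53 and Mir133b at −5.18). Mir1a-2, with 156 reads in replicate 2 and 87 in replicate 1, was not called. The heart marker Mir208a was called higher, with 29718 reads in replicate 2, against 59 in replicate 1. Mir208b, listed for slow muscle and heart, held 0.141% of replicate 2 and 0.0240% of replicate 1, and was called higher at 2.13. Mir126a of endothelium made up 6.62% of replicate 2 and 2.54% of replicate 1, with a log2 ratio of 0.95 that was not called. The 2 smooth muscle markers held 4.90% of replicate 2, against 2.17% of replicate 1, with Mir145a called higher and Mir143 not called. The 2 erythroid markers held 0.0979% and 0.0220%, both called higher. The 5 white blood cell markers held 0.429% in replicate 2 and 0.0793% in replicate 1, with 3 of 5 called higher and 0 lower. Among these 5, Mir223 went the other way, with 345 reads in replicate 2 and 726 in replicate 1, at −0.96, short of a call. The 3 fibroblast markers held 0.281% and 0.591%, all 3 called lower. No marker on these lists was at 0 in either library. The part of these cell types in the family's levels was not tested.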

How the data were processed

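The libraries hold small RNA inserts of less than 30 nt of 2 pups, labelled as gastrocnemius and as biological replicates of 1 group. The authors deposited raw counts of reads for every microRNA gene, in 3 columns (unstranded, sense and antisense). The deposited description texts name mm10 and GENCODE M21. No source used here names the aligner or the trimming, and the layout of 4 summary lines and 2202 genes is that of STAR gene counts. Those lines stayed out of library sizes. In the sense column they held 45.1% multimapping, 8.60% unmapped and 3.83% unannotated reads in replicate 2, and 35.7%, 9.97% and 2.05% in replicate 1. Both files hold their own sample's columns alone, with 0 columns left out.

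All 2202 identifiers matched GENCODE M21, which gave names and places. Sense counts were used throughout. Shares have Clopper-Pearson 95% intervals. Log2 ratios used a prior count of 1 and TMM sizes from edgeR 4.0.16 (R 4.3.3), and their intervals come from the exact binomial interval of the reads of both libraries. No test of a condition was possible. Alternatives were DESeq2 1.42.0 size factors, total reads, other gene minimums, a prior count of 5 and the unstranded column. The genes named were all members, genes with their seed, the top gene of 3 comparison lists, markers and the nearest genes by log2 ratio. The neighbouring pairs were chosen after their values were seen, and members and lists with earlier results of these data known. The calculation of the intervals was checked on simulated independent counts with known library sizes. That check does not cover PCR copies or error in the library sizes. Python 3.11.15, numpy 2.4.6, scipy 1.17.1, pandas 2.3.3 and matplotlib 3.10.9 were used.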

Additional observations from a re-analysis of the deposited data

How the results depend on the processing

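The family sum kept a positive log2 ratio under all settings tried, from 0.85 to 1.76 around 1.34. It was 1.23 with DESeq2 size factors, 1.76 with total microRNA reads, 1.46 with all reads of the library, 1.46 without Mir16-1 and Mir16-2, and 1.10 with unstranded counts, which lose Mir497. Settings added after seeing the data gave 1.14 and 1.51 with TMM over genes with at least 10 and at least 100 reads, 1.41 with DESeq2 over genes with at least 10 reads, and 0.85 with totals without Mir206 and the Dlk1-Dio3 region, where it was no longer 2-fold. Members called lower numbered 0 with total reads, against 29.8% of all genes, and members called higher ranged from 2 to 4. Of all 410 genes, 70 were called higher with totals without Mir206 and the Dlk1-Dio3 region, where 2 members were. With total reads 143 (34.9%) were, beside 4 members. Over all genes, 60 of 266 (22.6%) were called higher and 102 (38.3%) lower with at least 100 reads, 202 of 719 (28.1%) higher and 205 (28.5%) lower with at least 1, against 105 higher and 137 lower of 410. With unstranded counts the family gave 29.0% of the reads of genes with the seed in replicate 2 and 9.68% in replicate 1. With stretches of 25 nt only 2 members, Mir497 and Mir497b, shared one with another gene, against 4 at 22 nt. Antisense reads taken as unstranded minus sense counts came to −9785, against 9785 in the antisense column, because reads of Mir497 are ambiguous without strand. The family share was 0.845% or 0.249% with either library alone, and no ratio is left then. No paired analysis was possible because there is 1 group. Depth limits Mir16-2 most among the members with reads, at 148 in replicate 2 and 364 in replicate 1.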
